A study of Homo sapiens with 6 samples.

Results

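The genes described here are 10 established transcriptional targets of p53, namely MDM2, CCNG1, TP53INP1, BTG2, PHLDA3, AEN, FDXR, ZMAT3, XPC and DDB2, taken by symbol from a table of 16376 genes. The table holds RNA sequencing values of the human osteosarcoma cell line HOS. There were 3 libraries of cells given Agrimol B for 24 h and 3 libraries of control cells, whose labels list no treatment and do not mention a solvent. All 6 libraries came from the same cell line, labelled WT for genotype. The sources used here give no dose for Agrimol B. Agrimol B is a polyphenol (a phloroglucinol derivative) of the agrimony plant. No label says that the replicates were separate cultures, so the p-values below set the group difference against a spread between libraries that may be only technical.

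The transcription factor p53 is held at a low level by MDM2, a ubiquitin ligase that marks it for degradation and is itself a p53 target. After DNA damage and some other stresses p53 is stabilised and raises a set of genes that halt division, repair DNA, trigger death or restrain p53 again. It does so by binding response elements made of paired short motifs, often close to the start of the gene. Some p53 targets also answer to other factors, among them ATF4, a regulator of the stress response to amino acid shortage and misfolded protein.

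Response element letters were looked for in RefSeq promoter windows (GRCh38.p14) that run from 250 bases before to 50 bases after each annotated start. The p53 response element was taken as adjoining motifs of 10 bases each, both with the letters CNNG at their centre, and up to 3 mismatches over the 20 bases were allowed, a limit set after the matches had been seen. The element reads alike on both strands. Windows were held for 8 of the 10 genes, 15 windows in all, and not for PHLDA3 or TP53INP1. A match stood in a window of 4 of these 8 genes, MDM2, DDB2, AEN and FDXR, against 1.37% of the 27305 genes in the promoter table and 1.12% of its 35116 windows. The closest letters in ZMAT3 had 4 mismatches, just outside the limit. The match stood in 5 windows, since 2 overlapping MDM2 windows hold the same element. A window of each of the 4 genes is shown for its p53 letters, and that of XPC because XPC changed most. Capitals mark the matching element, and no capitals mean that these letters are not in that window. The windows are chr12:68808767-68809066 for MDM2, chr11:47214724-47215023 for DDB2 and chr15:88621090-88621389 for AEN on the plus strand, and chr17:74872945-74873244 for FDXR and chr3:14178552-14178851 for XPC on the minus strand.
MDM2: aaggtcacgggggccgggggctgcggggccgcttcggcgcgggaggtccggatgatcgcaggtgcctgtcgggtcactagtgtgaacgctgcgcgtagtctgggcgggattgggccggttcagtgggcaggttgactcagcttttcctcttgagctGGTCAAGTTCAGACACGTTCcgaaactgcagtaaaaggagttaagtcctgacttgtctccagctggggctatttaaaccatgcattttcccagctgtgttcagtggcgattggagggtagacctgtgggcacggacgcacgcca
DDB2: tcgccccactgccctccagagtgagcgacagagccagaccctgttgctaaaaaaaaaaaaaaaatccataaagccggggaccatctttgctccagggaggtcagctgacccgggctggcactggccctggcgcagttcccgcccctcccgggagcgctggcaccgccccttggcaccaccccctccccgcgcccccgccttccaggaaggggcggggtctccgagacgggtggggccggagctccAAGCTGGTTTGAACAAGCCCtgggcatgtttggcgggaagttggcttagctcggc
AEN: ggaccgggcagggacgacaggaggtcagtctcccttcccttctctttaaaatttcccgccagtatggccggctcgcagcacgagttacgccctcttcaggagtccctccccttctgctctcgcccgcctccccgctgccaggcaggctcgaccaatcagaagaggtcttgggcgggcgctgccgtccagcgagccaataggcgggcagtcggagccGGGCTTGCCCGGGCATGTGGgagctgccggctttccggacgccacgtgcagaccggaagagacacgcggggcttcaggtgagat
FDXR: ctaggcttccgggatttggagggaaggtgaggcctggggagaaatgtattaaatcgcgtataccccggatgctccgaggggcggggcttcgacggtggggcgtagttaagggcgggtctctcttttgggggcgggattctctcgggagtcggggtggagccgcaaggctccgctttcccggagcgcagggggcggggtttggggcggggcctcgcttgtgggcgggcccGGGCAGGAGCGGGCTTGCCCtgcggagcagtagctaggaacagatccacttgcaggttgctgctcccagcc
XPC: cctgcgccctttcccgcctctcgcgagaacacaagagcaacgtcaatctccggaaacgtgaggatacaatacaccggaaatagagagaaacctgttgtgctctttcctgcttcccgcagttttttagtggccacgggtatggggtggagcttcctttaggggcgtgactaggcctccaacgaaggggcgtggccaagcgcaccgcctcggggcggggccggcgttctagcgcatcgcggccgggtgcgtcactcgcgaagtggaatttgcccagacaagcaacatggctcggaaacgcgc
The element had 1 mismatch in DDB2, 2 in MDM2, 2 in AEN and 3 in FDXR. It began 94 bases before the start in the MDM2 window shown and 101 in the overlapping one, 34 in AEN, 21 in FDXR and 5 in DDB2, in the last case running across the start. The MDM2 and DDB2 windows belong to internal starts of those genes, and the windows at their first starts held no match. A match of letters describes the window and is not a measurement of binding.

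Across genes, Pearson's r of log2(FPKM + 1) was 0.9468 to 0.9504 between an Agrimol B and a control library and 0.9861 to 0.9884 between libraries of the same group. Of 10 mesenchymal and bone markers 8 were in the table and 7 averaged at least 1 FPKM, with summed levels of 1014 to 1069 FPKM in Agrimol B libraries and 1459 to 1549 FPKM in control libraries. The osteoblast factor RUNX2 was present (6.25 and 5.15 FPKM on average with Agrimol B and in control), while osteocalcin (BGLAP) was close to 0 (0.0850 and 0.146 FPKM). The leukocyte marker PTPRC averaged 0.0193 FPKM with Agrimol B and 0 in control, while CD68 averaged 9.002 and 4.220 FPKM, and these 2 of 4 leukocyte markers summed to 7.49 to 10.3 FPKM with Agrimol B and 4.02 to 4.59 FPKM in control. The 3 endothelial markers summed to under 1 FPKM in every library. Of the 4 epithelial markers, EPCAM averaged 14.0 FPKM with Agrimol B and 13.8 FPKM in control, KRT19 1.95 and 0.0817 FPKM, KRT5 3.78 and 0.289 FPKM, and CDH1 0.155 and 0.268 FPKM. The list summed to 13.06 to 27.96 FPKM with Agrimol B and 13.49 to 15.05 FPKM in control. KRT5 reached 10.4 FPKM in a single Agrimol B library, which carried most of its mean in that group. The part of these differences between groups in the results below was not tested. In cell populations measured in bulk, fewer cells of a type and less RNA per cell cannot be told apart.

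The question was whether the p53 targets moved together in cells given Agrimol B. They moved in both directions. XPC, TP53INP1 and AEN rose, CCNG1, FDXR and DDB2 fell, and MDM2, PHLDA3 and ZMAT3 did not pass the test. BTG2 lay under the filter on low values. The test was limma on log2(FPKM + 1) over the 12143 genes whose mean reached 1 FPKM, with Benjamini-Hochberg adjustment over all of them and a threshold of 0.05. FPKM scales a gene's fragments by its transcript length and by the fragments mapped in the library. Of the 9 tested targets 3 rose and 3 fell, against 30.6% of all tested genes that rose and 21.4% that fell, 52.0% in all. The median log2 difference was -0.01 over the 9 targets and 0.07 over all tested genes. With so few genes, 3 calls in each direction (33.3%) are close to these shares. The values of the groups did not overlap in 6 of the 9 tested targets, 3 with Agrimol B higher and 3 with Agrimol B lower, against 62.2% of all tested genes, 36.2% higher and 26.0% lower.

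**Figure D1:**
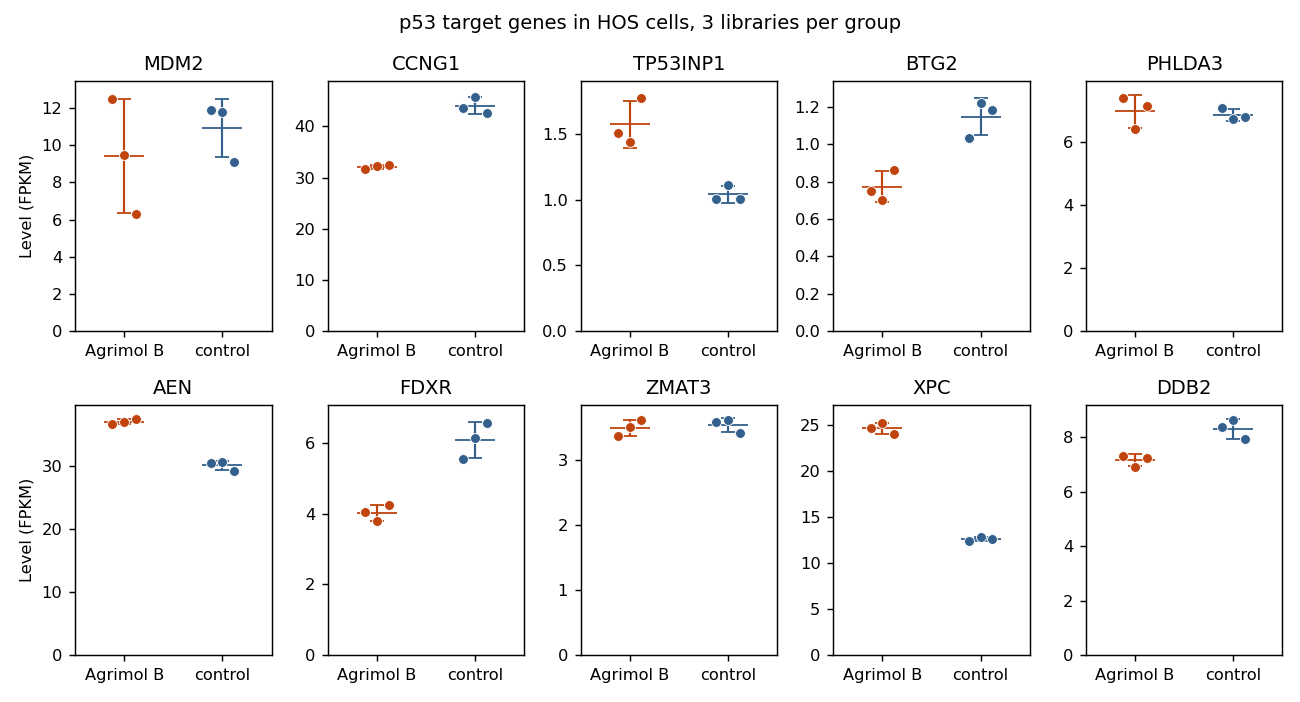
Level in FPKM (vertical axis, from 0) of each p53 target in the 3 Agrimol B libraries (left, orange) and the 3 control libraries (right, blue). Points are libraries, long bars are means and whiskers are 1 SD. XPC stands near 25 FPKM in the Agrimol B libraries and near 13 FPKM in control, while PHLDA3 and ZMAT3 overlap and MDM2 spreads from 6.30 to 12.5 FPKM with Agrimol B.

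The regulators of p53 itself showed no common direction. MDM2 (chromosome 12, 68808176 to 68850686, plus strand) stood at 12.5, 9.47 and 6.30 FPKM in the Agrimol B libraries and at 11.9, 11.8 and 9.10 FPKM in the control libraries. The groups overlapped, and the Agrimol B libraries alone spanned a 1.98-fold range. The log2 difference was -0.23 with a 95% interval of -0.79 to 0.33 (adjusted p = 0.439), which corresponds to 0.577-fold to 1.26-fold on the scale of FPKM + 1. On the log2 scale the spread of MDM2 within groups was wider than that of 94.9% of the tested genes. Without the third Agrimol B library the difference was 0.0037. Exons of MDM2 overlap those of CPM on the opposite strand, which stood at 1.59 ± 0.127 FPKM with Agrimol B and 1.84 ± 0.0844 FPKM in control (SD, n = 3 each). The sources used here do not say whether the counting used strand, without which reads of such pairs cannot be told apart. MDM2 also shares exon positions with the pseudogene AC025423.2 on its own strand, and PHLDA3 with the noncoding RNA AC096677.2, so that their levels are less certain.

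CCNG1, which encodes cyclin G1, a partner of the phosphatase PP2A that acts on MDM2, fell. It lies on chromosome 5 (163437569 to 163446151, plus strand) and had the highest mean of the targets over the 6 libraries, although AEN stood above it in every Agrimol B library. Its level was 31.6, 32.2 and 32.4 FPKM with Agrimol B, against 43.6, 45.8 and 42.6 FPKM in control. Every Agrimol B library lay below every control library. The level was 1.37-fold lower (log2 difference -0.44 ± 0.04 SE, adjusted p = 4.21e-04), and 11.9% of all tested genes had a lower difference.

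TP53INP1, a p53-induced nuclear protein that favours p53 phosphorylation and also acts in autophagy, rose from a low base. The gene is on chromosome 8 (94925972 to 94949411, minus strand). It stood at 1.51, 1.44 and 1.77 FPKM in Agrimol B libraries and at 1.00, 1.11 and 1.00 FPKM in control libraries. The groups did not overlap, and the mean was 1.51-fold higher (log2 difference 0.33 ± 0.07 SE, adjusted p = 0.0109). Because of the added 1 FPKM, this log2 difference understates the ratio of the means. With a pseudocount of 0.1 it was 0.55.

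Of the growth arrest targets, BTG2 stood lower and PHLDA3 did not pass the test. BTG2, an antiproliferative adaptor of the CCR4-NOT deadenylase (chromosome 1, 203305491 to 203309602, plus strand), stood at 0.748, 0.705 and 0.865 FPKM with Agrimol B and at 1.03, 1.22 and 1.19 FPKM in control. All Agrimol B values were below all control values, and the mean was 1.49-fold lower. Its mean over the 6 libraries, 0.96 FPKM, kept it out of the main test. Fitted without the filter it fell (log2 difference -0.28 ± 0.06 SE, adjusted p = 0.0119 over 16376 genes, of which 17.8% were called lower). Where leaving out a library brought its mean up to the filter, it did not pass (adjusted p 0.0530 without Agrimol B library 1 and 0.0610 without library 2). PHLDA3, which blocks the kinase AKT by competing for membrane lipids (chromosome 1, 201464383 to 201469237, minus strand), stood at 7.41, 6.41 and 7.15 FPKM with Agrimol B and 7.08, 6.74 and 6.79 FPKM in control. The groups overlapped, and the 95% interval of the log2 difference ran from -0.14 to 0.18 (adjusted p = 0.817).

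Of the targets linked to death and to redox, AEN rose and FDXR fell. AEN, an apoptosis-enhancing nuclease (chromosome 15, 88621296 to 88632282, plus strand), stood at 36.7, 37.1 and 37.5 FPKM with Agrimol B and 30.5, 30.7 and 29.3 FPKM in control. The 2 groups were narrow and well apart, with a level 1.23-fold higher (log2 difference 0.29 ± 0.04 SE, adjusted p = 0.00148). FDXR, the mitochondrial ferredoxin reductase that passes electrons to ferredoxins for steroid and iron-sulfur cluster synthesis (chromosome 17, 74862497 to 74873031, minus strand), stood at 4.05, 3.78 and 4.23 FPKM with Agrimol B and 5.53, 6.14 and 6.57 FPKM in control. Its groups did not overlap either. The level was 1.51-fold lower (log2 difference -0.49 ± 0.07 SE, adjusted p = 0.00243), the largest fall among the tested targets. The promoter windows of both genes hold letters of the p53 element, as shown above. Whether p53 had a part in either difference was not tested.

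ZMAT3, a zinc finger protein that binds RNA (chromosome 3, 179017223 to 179072279, minus strand), stood at 3.38, 3.51 and 3.62 FPKM with Agrimol B and 3.60, 3.62 and 3.41 FPKM in control. The values of the groups were interleaved. Its log2 difference was -0.01, with a narrow 95% interval of -0.15 to 0.12 (adjusted p = 0.853), which corresponds to 0.904-fold to 1.09-fold on the scale of FPKM + 1.

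The DNA damage sensors of nucleotide excision repair moved apart. XPC, which recognises distorted DNA across the whole genome (chromosome 3, 14145147 to 14178783, minus strand), stood at 24.6, 25.2 and 24.0 FPKM in Agrimol B libraries and 12.4, 12.8 and 12.6 FPKM in control libraries. Within each group the values were close together, and the lowest Agrimol B library was far above the highest control library. The level was 1.95-fold higher (log2 difference 0.91 ± 0.04 SE, adjusted p = 4.12e-05), and 3.30% of all tested genes had a higher difference. Exons of XPC overlap those of LSM3 on the opposite strand, which stood lower with Agrimol B (15.7 ± 0.540 FPKM) than in control (18.7 ± 0.754 FPKM; adjusted p = 0.0101), and those of AC090004.1, which stayed under 0.4 FPKM in every library. DDB2, which with DDB1 finds ultraviolet lesions in chromatin (chromosome 11, 47214465 to 47239240, plus strand), stood at 7.32, 6.92 and 7.24 FPKM with Agrimol B and 8.39, 8.63 and 7.93 FPKM in control. All Agrimol B values were below all control values, by a small margin. The level was 1.16-fold lower (log2 difference -0.19 ± 0.05 SE, adjusted p = 0.0257). This call needed Agrimol B libraries 2 and 3 and control libraries 1 and 2, since without any of them the adjusted p was 0.0549 to 0.0796, and across every alternative it ran from 0.00639 to 0.0796.

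**Figure D2:**
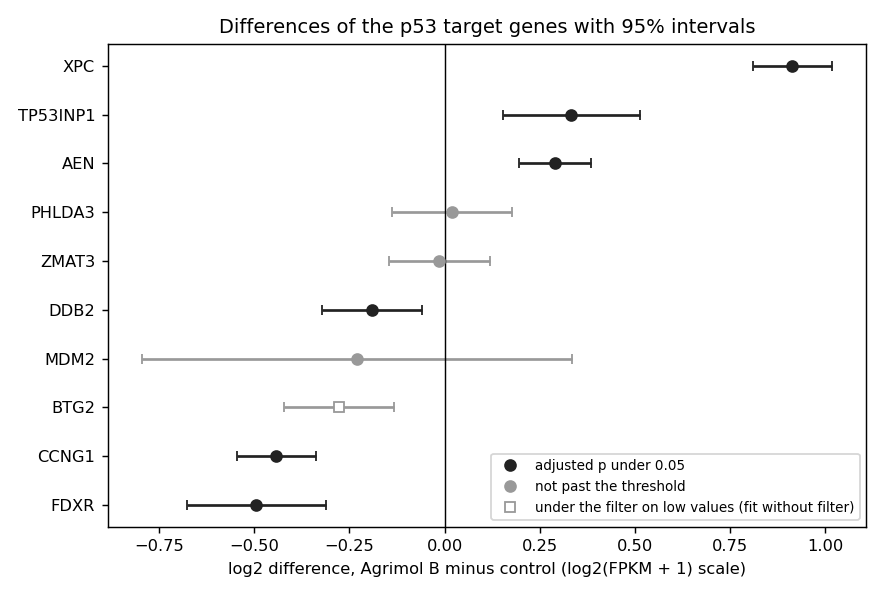
Log2 difference, Agrimol B minus control, on the log2(FPKM + 1) scale (horizontal axis) for each p53 target, with its 95% interval from limma. Black points passed the threshold, grey points did not, and the open square is BTG2 from the fit without the filter on low values. XPC stands apart at 0.91 on the right, CCNG1 and FDXR lie at -0.44 and -0.49 on the left, and the interval of MDM2 is the widest shown.

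The upstream genes did not point one way either. Of 27 tested genes that encode relatives of p53 or its kinases, ligases and cofactors, 6 rose (22.2%) and 8 fell (29.6%). Their median log2 difference was -0.01. Over all tested genes 30.6% rose and 21.4% fell. The share called in either direction, 51.9%, was close to the 52.0% of all tested genes. The checkpoint kinase CHEK2 fell 1.89-fold (4.06 ± 0.786 and 7.69 ± 0.794 FPKM with Agrimol B and in control, adjusted p = 0.00332) and the p53-binding corepressor DAXX fell 1.55-fold, while the chromatin reader TP53BP1 rose 1.52-fold. Exons of TP53BP1 overlap those of TUBGCP4 on the opposite strand, and exons of DAXX overlap another annotated gene on the same strand.

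Other known p53 targets also went both ways. These lists, some of which share genes, were chosen with results of these libraries already known. Over all tested genes 30.6% rose and 21.4% fell. Of 15 tested targets linked to cell cycle arrest, 7 rose (46.7%) and 4 fell (26.7%), with a median of 0.06. Of 18 linked to apoptosis, 3 rose (16.7%) and 9 fell (50%), with a median of -0.24. Of 24 linked to metabolism and stress, 10 rose (41.7%) and 7 fell (29.2%), with a median of 0.17. CDKN1A, which encodes the cell cycle inhibitor p21, stood at 7.48, 7.499 and 8.85 FPKM with Agrimol B and 6.04, 6.23 and 6.52 FPKM in control. The groups did not overlap, and the level was 1.27-fold higher (log2 difference 0.30 ± 0.08 SE, adjusted p = 0.0184). That call was lost with quantile normalization (adjusted p = 0.0546) and without control library 1 (0.0571) or 2 (0.0520), over a range of 0.0173 to 0.0571. The largest differences on the arrest list were rises of KLF4 and E2F7, transcription factors, GADD45A, a growth arrest gene, and RPRM, with log2 differences of 2.17, 1.61, 1.71 and 1.13.

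Among the death genes, the decoy receptor TNFRSF10D fell 2.90-fold (3.10 ± 0.119 FPKM with Agrimol B and 8.96 ± 0.677 FPKM in control) and the caspase CASP6 fell 2.46-fold. The receptor TNFRSF10B and BBC3, which encodes the BH3-only protein PUMA, rose (log2 differences 1.28 and 1.01). BBC3 stood at 11.4 ± 0.415 FPKM with Agrimol B and 5.15 ± 0.535 FPKM in control. GDF15, a secreted cytokine, SESN2, a leucine sensor, and DDIT4, an inhibitor of mTORC1, rose most on the metabolism and stress list (log2 differences 4.12, 3.13 and 2.04). They are also known targets of the ATF4 pathway. Whether ATF4 or p53 had a part in any of these rises was not tested. SUSD6 rose 2.18-fold. None of the 10 targets described first reached the differences of GDF15, SESN2 or DDIT4, with XPC the nearest at 0.91.

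Of 16 genes that p53 is known to lower through p21 and the DREAM repressor complex, 15 fell and 0 rose (median -0.69). Over all tested genes 21.4% fell and 30.6% rose. The 16 are cell division genes, for which falls in these libraries were known when the list was chosen. Whether p53 or p21 had a part in these falls was not tested. The mitotic genes AURKA, CCNB1 and CDC25C fell 2.16-fold, 2.14-fold and 2.06-fold, and MYBL2 fell 1.94-fold to 70.1 ± 1.34 FPKM, against 136 ± 3.66 FPKM in control.

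**Figure D3:**
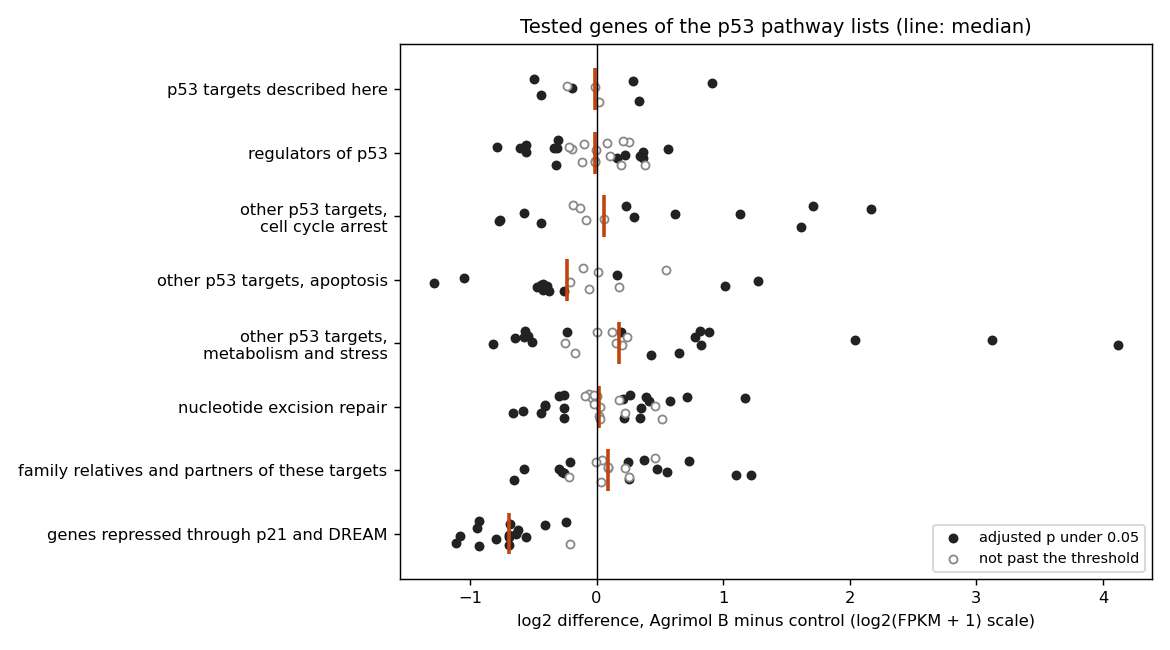
Log2 difference, Agrimol B minus control, on the log2(FPKM + 1) scale (horizontal axis) for the tested genes of each list. Each point is a gene, filled where the adjusted p passed 0.05, and the orange line is the median of the list. Every list except the genes lowered through p21 and DREAM has filled points on both sides of 0, and that list lies to the left with a median of -0.69.

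Genes of the repair machinery around XPC and DDB2 likewise moved in both directions. Of 32 tested genes of nucleotide excision repair, 10 rose (31.25%) and 9 fell (28.1%), with a median of 0.02. Over all tested genes the shares were 30.6% and 21.4%. Without control library 2 the rises numbered 6. UVSSA, which acts at stalled RNA polymerase, rose 2.56-fold and the endonuclease ERCC5 1.70-fold, with the reservation that ERCC5 shares exons with the read-through gene BIVM-ERCC5. PCNA, the replication clamp, fell 1.59-fold and the ligase LIG1 1.52-fold, both in the later gap-filling steps. RAD23B, the stabilising partner of XPC, stood at 82.8, 70.8 and 69.5 FPKM with Agrimol B and 91.5, 89.9 and 85.4 FPKM in control. It fell (log2 difference -0.26, adjusted p = 0.0288), but did not pass without Agrimol B library 2 or 3 or control library 1 or 2 (adjusted p 0.0767 to 0.0850, within 0.00434 to 0.0850 across every alternative). The third subunit, CETN2, fell to 13.4 ± 0.416 FPKM, against 16.7 ± 0.989 FPKM in control (adjusted p = 0.00624), a gene chosen after its values were seen. DDB1 stood at 133, 114 and 114 FPKM with Agrimol B and 96.7, 99.3 and 112 FPKM in control (adjusted p = 0.0693), and it passed without control library 3 (0.0405).

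Relatives and partners of the targets allowed a comparison inside each library. Of 23 such tested genes 8 rose (34.8%) and 6 fell (26.1%), with a median of 0.09, beside 30.6% and 21.4% of all tested genes. For 10 pairs the log2 ratio of (FPKM + 1) was formed per library and compared by an exact two-sided permutation test, for which 0.1 is the smallest p that 3 against 3 libraries allow, or 0.167 after Benjamini-Hochberg adjustment over the 10 pairs. No pair could therefore pass the threshold. In 6 pairs the groups did not overlap and in 4 they did. For levels of single genes the groups did not overlap in 62.2% of those tested. That share is not one for ratios, and none over ratios of other gene pairs is given here.

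The ratio of BTG2 to BTG1, its closest relative, was -3.58, -3.65 and -3.48 with Agrimol B and -2.10, -2.21 and -2.26 in control, a difference of -1.38 (exact p = 0.1). BTG1 rose 2.27-fold (adjusted p = 1.57e-04), while BTG2 stood lower. The ratio of PHLDA3 to PHLDA1, an early response gene of the same family, was -0.70, -1.07 and -0.77 with Agrimol B and 0.34, 0.35 and 0.35 in control, a difference of -1.20 (exact p = 0.1). PHLDA1 rose 2.58-fold (adjusted p = 6.40e-05), so that the more abundant of the pair was PHLDA1 in every Agrimol B library and PHLDA3 in every control library. The ratio of XPC to RAD23B was -1.71, -1.45 and -1.49 with Agrimol B and -2.79, -2.72 and -2.67 in control, a difference of 1.17 (exact p = 0.1).

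The ratios of FDXR to FDX1, its electron acceptor, and of DDB2 to DDB1 were lower with Agrimol B by 0.49 and 0.42 (exact p = 0.1 for each). FDX1 stood at 9.51 ± 0.320 FPKM with Agrimol B and 9.56 ± 0.401 FPKM in control. ZMAT3 to ZMAT2 was lower by 0.05, also without overlap (exact p = 0.1), although neither gene passed the test on its own. For MDM2 and MDM4, the relative that blocks p53 without degrading it, the ratio was 1.01, 0.74 and 0.21 with Agrimol B and 0.93, 1.31 and 1.17 in control (exact p = 0.2). For TP53INP1 and TP53INP2 it averaged -1.09 and -0.94 with Agrimol B and in control (exact p = 0.3). TP53INP2 rose 1.53-fold (adjusted p = 0.00106). For AEN and ISG20L2, a nuclease of the same family that rose 1.21-fold (adjusted p = 0.00277), the ratio averaged 0.24 and 0.21 (exact p = 0.6). For CCNG1 and CCNG2 it averaged 2.91 and 3.08 (exact p = 0.2), and CCNG2 stood at 3.42 ± 0.224 FPKM with Agrimol B and 4.34 ± 0.319 FPKM in control (adjusted p = 0.0201). The call of CCNG2 was lost without Agrimol B library 2 or 3 or control library 3 (adjusted p 0.05 to 0.0625, within 0.00967 to 0.0625 across every alternative). ISG20, another exonuclease, stood at 2.21, 1.74 and 1.61 FPKM with Agrimol B and 0.633, 1.04 and 0.517 FPKM in control, and rose (adjusted p = 0.00597). ZMAT5 fell 1.60-fold.

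**Figure D4:**
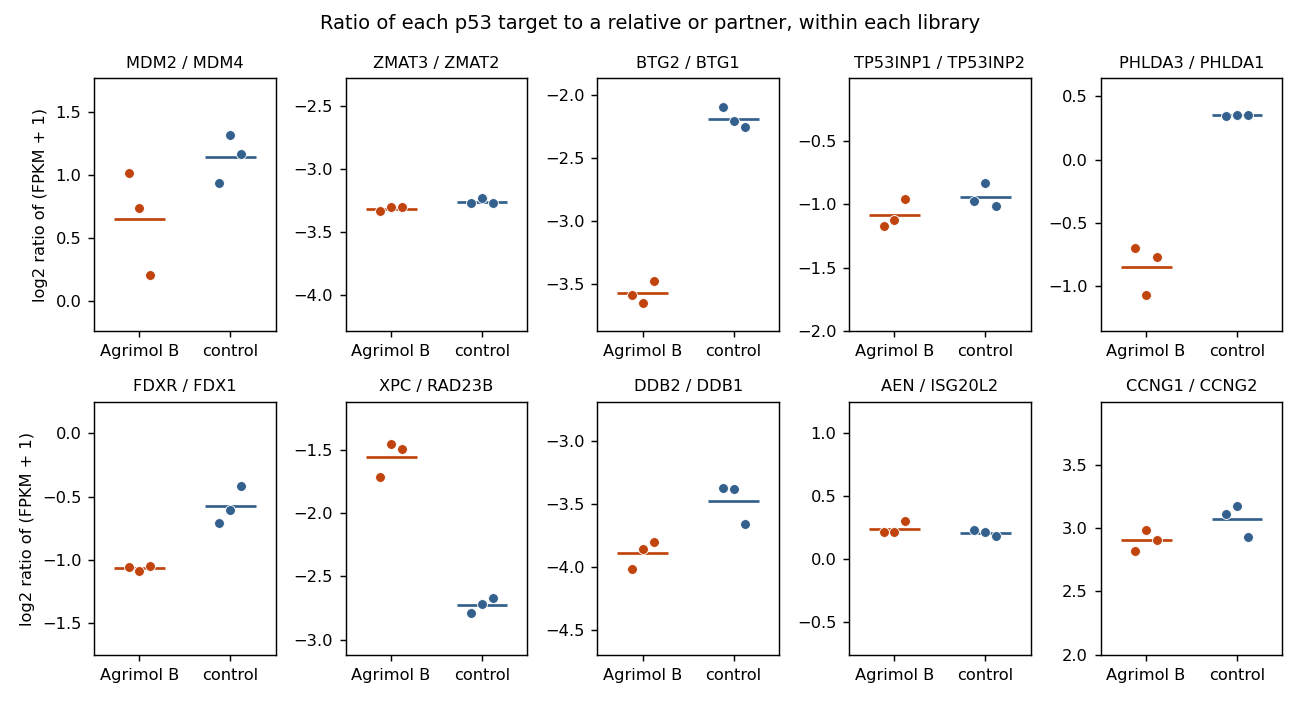
Log2 ratio of (FPKM + 1) of each p53 target to a relative or working partner within the same library (vertical axis, each panel spanning 2 log2 units), for 3 Agrimol B libraries (left, orange) and 3 control libraries (right, blue). Points are libraries and bars are means. The groups stand apart most for BTG2 to BTG1, PHLDA3 to PHLDA1 and XPC to RAD23B, with differences of -1.38, -1.20 and 1.17.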

How the data were processed

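The authors deposited 1 table of FPKM values with 1 column per library, 6 in all. Alignment is not described further than by the names HISAT, hg38, Trimmomatic, cutadapt and FastQC in the submitters' processing notes. The sources used here do not say which program, annotation or strand setting gave the FPKM values. The library kit keeps strand, per the labels' protocols. Agrimol B columns carry the samples' descriptions. Control columns have the letters of the description reversed, and were matched by letters and number. FPKM hides the number of fragments, so the counting error of a value is unknown. From ratios of values under 0.05 FPKM, depths relative to the first control library were 0.99 to 1.19.

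Values were analysed as log2(FPKM + 1) for genes averaging 1 FPKM or more, with limma 3.58.1 in R 4.3.3 (group term, empirical Bayes with variance trend, two-sided) and Benjamini-Hochberg adjustment over all 12143 genes. The limma fit was also run on simulated libraries of the same design, in which low genes such as TP53INP1 were given no difference. A fold is the ratio of group means of FPKM, and intervals are 95%. Coordinates are from GENCODE 29 (GRCh38) and promoters from RefSeq. Other steps ran in Python 3.11.15 (scipy 1.17.1, numpy 2.4.6, pandas 2.3.3). The targets, lists and tests were chosen with earlier results of these data known. Named genes are the 10 targets, CDKN1A, the partners in the pairs and, per list, the 4 called genes with the largest differences, of which some are not reported here. Alternatives were other filters, a pseudocount of 0.1, other scalings, no variance trend, a replicate block and leaving out each library.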

Additional observations from a re-analysis of the deposited data

How the results depend on the processing

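Of the 47 targets and named genes with a fit, 35 kept their direction and their side of the threshold under all of the 13 alternatives that gave them a value, among them XPC, AEN, FDXR, CCNG1 and TP53INP1. The tested targets numbered 3 higher and 2 to 4 lower under all alternatives except a filter of 5 FPKM, which left 2 higher. Over all genes, 3713 rose and 2598 fell, against 3084 higher and 3150 lower after scaling by median ratios and 3101 higher and 3083 lower after quantile normalization. Signs turned only in genes that did not pass. PHLDA3 gave -0.039 with median-ratio scaling and -0.056 with quantile normalization. ZMAT2 gave -0.025 with the first and -0.0023 with the second. When each library was left out in turn, log2 differences ran from -0.44 to 0.0037 for MDM2, -0.018 to 0.073 for PHLDA3, -0.034 to 0.0065 for ZMAT3 and -0.038 to 0.016 for FDX1. MDM4 passed without control library 1 (0.0131). The ratio of BTG2 to BTG1 differed by -1.70 with a pseudocount of 0.1, an alternative chosen after seeing the data. With the replicate number as a block 3392 genes rose and 2384 fell, and DDB2 lost its call (adjusted p = 0.0718). Same-numbered libraries did not deviate together (r 0.037, -0.0058 and -0.015), and 2 of 6 libraries correlated best with their own number, so the numbers are not taken as pairs. The total depth is unknown, which limits what can be said of low values such as those of BTG2 and TP53INP1.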

Other observations

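Some genes of these lists differed between libraries of 1 group by more than between groups. They were chosen after their values were seen. SCO2, a copper chaperone of cytochrome oxidase and a p53 target, stood at 8.19, 1.80 and 0.653 FPKM with Agrimol B and at 9.26, 1.11 and 0.954 FPKM in control. The first library of each group was the highest, and the spread of SCO2 within groups was wider than that of 99.9% of the tested genes. GTF2H5, a subunit of the repair and transcription factor TFIIH, stood at 2.49, 2.99 and 11.8 FPKM with Agrimol B and at 2.80, 2.92 and 3.12 FPKM in control, so that 1 library carried the higher mean. The Agrimol B libraries held 0.471, 0.489 and 2.47 FPKM of SFN, a p53 target, and the control libraries 1.22, 1.09 and 1.40 FPKM. The highest value was again in Agrimol B library 3.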
